A study of Mus musculus with 10 samples.

Results

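The genes described here are Slc1a2, Aldh1l1 and Hes5, 3 of the 7385 mouse genes whose transcripts could be read from the deposited counts of 10 cortex libraries. Slc1a2 encodes GLT-1, the transporter that clears most of the glutamate released at cortical synapses. Aldh1l1 encodes cytosolic 10-formyltetrahydrofolate dehydrogenase, a folate enzyme widely used as a marker of astrocytes. Hes5 encodes a basic helix-loop-helix repressor that is switched on by Notch signalling. When a Delta or Jagged ligand on 1 cell binds Notch on its neighbour, the receptor is cut by gamma-secretase, and its intracellular part joins RBPJ on DNA and turns on targets such as Hes5. In the brain this pathway keeps progenitors undifferentiated and favours the astrocyte fate, and Hes5 remains expressed in astrocytes. The question put to the data was whether a transporter, an enzyme and a Notch target of the same cell type move together from animal to animal.

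The 10 libraries came from a small piece of cortex, part of 1 hemisphere, of mice on a C57BL/6 background. Of these, 5 were homozygous for an allele that lacks the TPR1 domain of STI1 (labelled dTPR/dTPR, called dTPR1 homozygous here) and were 541 to 630 days old, and 5 were wild type and 442 to 663 days old. STI1, encoded by Stip1, is the co-chaperone that links HSP70 with HSP90. The libraries are shallow, with 667751 to 927242 counts each, and 3 counts, the limit that a count of 0 allows, amounted to between 3.24 and 4.49 CPM (counts scaled to a common library size) of a library's total. Nothing in the labels names a batch, and the animals are the replicates.

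In these files almost all counts are found across from annotated genes, since 94.2% of them sit at IDs that overlap exon sequence of an oppositely oriented gene. A transcript is therefore read at the ID on the other strand, and a gene was given the counts of every ID for which it holds at least 90% of the opposite exon bases. Each of the 3 genes had 1 such ID, an antisense or processed transcript, and held 100% of the exon bases opposite to it, so none lay near the limit of 90%. The genes' own IDs were nearly empty. Over all 10 libraries the Slc1a2 ID held 11 counts, the Hes5 ID 9 and the Aldh1l1 ID 0, against 899, 1501 and 847 counts at the opposite IDs. The 3 genes were chosen by earlier results of the genotype comparison in these same libraries. The ID of Hes5 was among those with the smallest p-values, and Slc1a2 and Aldh1l1 were astrocyte genes whose fold changes were already known, so their genotype differences are given as a description and without a p-value.

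The opposite IDs see only a part of each gene, and a different part in each. Gm13872 (chromosome 2, 102737907 to 102746760, minus strand, GRCm38) lies inside Slc1a2 (ENSMUSG00000005089.15, 102658659 to 102790784, plus strand). Of its 1825 exon bases, 189 face coding exons of Slc1a2 and 1636 face introns. Only 1.44% of the 13133 exon bases of Slc1a2 are covered in this way, and whether the counts stem from spliced or unspliced Slc1a2 RNA cannot be told apart from them. Gm15756 (chromosome 6, 90596697 to 90599948, minus strand) lies at the 3′ end of Aldh1l1 (ENSMUSG00000030088.15, 90486427 to 90600203, plus strand). It has 670 exon bases, of which 106 face a coding exon, 393 face untranslated or non-coding exon sequence and 171 face an intron. Gm20421 (chromosome 4, 154960770 to 154961678, minus strand) covers the 5′ part of Hes5 (ENSMUSG00000048001.7, 154960923 to 154962371, plus strand). Among its 672 exon bases, 354 face coding sequence, 79 untranslated or non-coding exon sequence and 86 an intron, and 153 lie upstream of the annotated start.

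**Figure D1:**
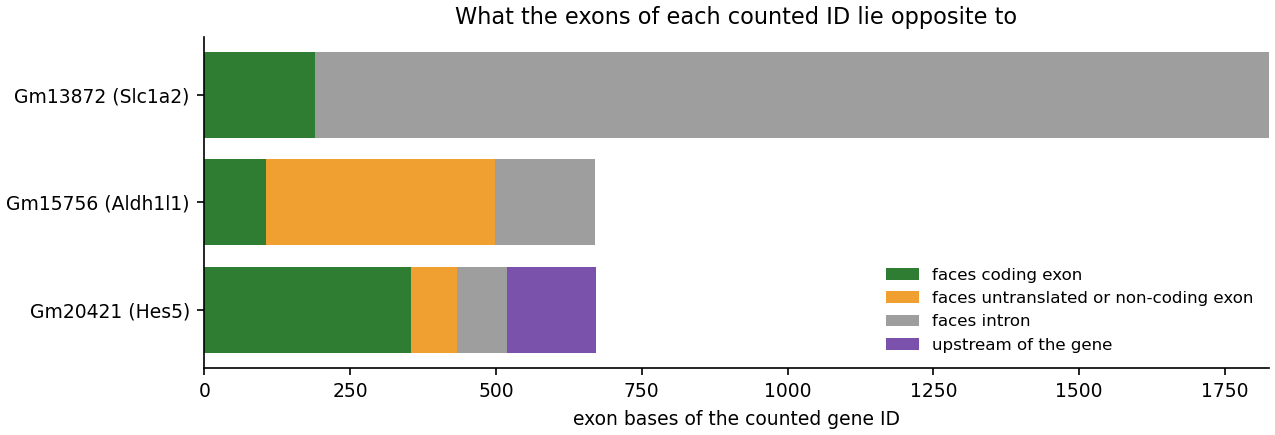
Exon bases (x axis) of the 3 counted gene IDs, one bar per ID with the gene read at it in brackets, split by what lies on the opposite strand. Gm13872 faces mostly introns of Slc1a2 (1636 of 1825 bases), while most bases of Gm15756 and Gm20421 face exons of Aldh1l1 (499 of 670) and Hes5 (433 of 672).

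Coding exons that face the counted IDs are shown for each gene on its own strand, 5′ to 3′, from the GENCODE M21 transcripts, with the bases that face the counted ID in capitals and the others in lower case. Exon 3 of 10 in transcript Slc1a2-201 (chr2:102737777-102737929, plus strand) is faced over its last 23 bases, and exon 5 (chr2:102743808-102743973) over all 166.
Slc1a2 exon 3: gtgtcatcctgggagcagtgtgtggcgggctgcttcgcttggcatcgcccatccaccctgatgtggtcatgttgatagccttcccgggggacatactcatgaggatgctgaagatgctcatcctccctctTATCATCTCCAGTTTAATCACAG
Slc1a2 exon 5: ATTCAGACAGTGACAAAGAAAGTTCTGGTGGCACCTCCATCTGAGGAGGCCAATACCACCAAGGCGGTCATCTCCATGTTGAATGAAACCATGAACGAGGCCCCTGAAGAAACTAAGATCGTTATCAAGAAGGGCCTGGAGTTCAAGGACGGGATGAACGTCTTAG
Exon 21 of 23 in Aldh1l1-201 (chr6:90596868-90596973, plus strand) is faced over all 106 bases, and exon 2 of 3 in Hes5-201 (chr4:154961136-154961301, plus strand) over 150 of 166 bases. Gm20421 also faces coding bases in the other exons of Hes5, which are not shown.
Aldh1l1 exon 21: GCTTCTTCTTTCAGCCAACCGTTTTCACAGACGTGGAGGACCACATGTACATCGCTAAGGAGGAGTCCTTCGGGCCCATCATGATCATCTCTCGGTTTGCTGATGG
Hes5 exon 2: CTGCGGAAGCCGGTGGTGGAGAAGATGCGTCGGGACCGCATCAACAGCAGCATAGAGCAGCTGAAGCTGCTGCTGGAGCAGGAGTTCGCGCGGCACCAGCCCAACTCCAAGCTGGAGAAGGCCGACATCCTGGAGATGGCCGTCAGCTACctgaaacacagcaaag

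Because Gm20421 reaches beyond the start of Hes5, the 250 bases before that start are shown as well (chr4:154960673-154960922, plus strand, RefSeq promoter table, GRCm38.p6). Capitals mark the letters GTGGGAA or, on the other strand, TTCCCAC, the heptamer known as a binding sequence of RBPJ.
Hes5 upstream: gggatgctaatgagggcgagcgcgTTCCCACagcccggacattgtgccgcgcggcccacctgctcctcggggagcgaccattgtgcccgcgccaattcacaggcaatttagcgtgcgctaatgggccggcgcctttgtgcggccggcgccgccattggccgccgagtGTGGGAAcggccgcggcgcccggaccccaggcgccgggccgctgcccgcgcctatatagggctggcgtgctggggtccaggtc
The match on the minus strand begins 226 bases and the match on the plus strand 83 bases before the start, and the second lies within an exon of Gm20421. In the table's windows of 300 bases, from 250 before to 50 after a start, 6.38% of 32851 windows hold the heptamer on either strand at least once and 0.256% hold 2 or more. The windows of Slc1a2 and Aldh1l1 hold 0. These are matches of letters, not measured binding.

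Slc1a2 varied most between animals. In dTPR1 homozygous animals 1 to 5 it stood at 243, 69.0, 236, 144 and 182 CPM, against 67.7, 47.9, 14.7, 106 and 178 CPM in wild-type animals 1 to 5 (CPM of the counts assigned to opposite-strand genes, scaled by TMM, edgeR's trimmed-mean factor). The wild-type animals spanned 12.1-fold, with animal 3 lowest at 11 counts, and the dTPR1 homozygous animals 3.52-fold. The groups overlapped, since dTPR1 homozygous animal 2 was about as low as wild-type animal 1 and wild-type animal 5 about as high as dTPR1 homozygous animal 5. Means were 175 ± 71.6 CPM in dTPR1 homozygous and 83.0 ± 62.7 CPM in wild-type cortex (SD, n = 5 each), a log2 fold change of 1.07 ± 0.51 (SE). Without wild-type animals 2 and 3, left out together after their values were seen, it was 0.56.

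Aldh1l1 stood at 111, 81.5, 219, 117 and 117 CPM in dTPR1 homozygous animals 1 to 5, against 86.1, 121, 99.2, 83.3 and 169 CPM in wild-type animals 1 to 5. Apart from dTPR1 homozygous animal 3 and wild-type animal 5, all animals lay between 81.5 and 121 CPM, and the groups overlapped almost completely. The means were 129 ± 52.6 CPM in dTPR1 homozygous and 112 ± 35.2 CPM in wild-type cortex (SD, n = 5 each), a log2 fold change of 0.20 ± 0.31 (SE). This value was -0.066 without dTPR1 homozygous animal 3 and 0.41 without wild-type animal 5.

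Hes5 lay lower in dTPR1 homozygous animals, where animals 1 to 5 stood at 185, 136, 106, 187 and 127 CPM, against 231, 471, 292, 173 and 188 CPM in wild-type animals 1 to 5. The highest dTPR1 homozygous value, in animal 4, fell between the 2 lowest wild-type values, so the groups overlapped. Wild-type animal 2, with 354 counts, was the highest library. The means were 148 ± 36.3 CPM in dTPR1 homozygous and 271 ± 121 CPM in wild-type cortex (SD, n = 5 each), and the log2 fold change was -0.87 ± 0.28 (SE). Leaving out wild-type animal 2 gave -0.57, and leaving out animal 3 with it gave -0.41.

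**Figure D2:**
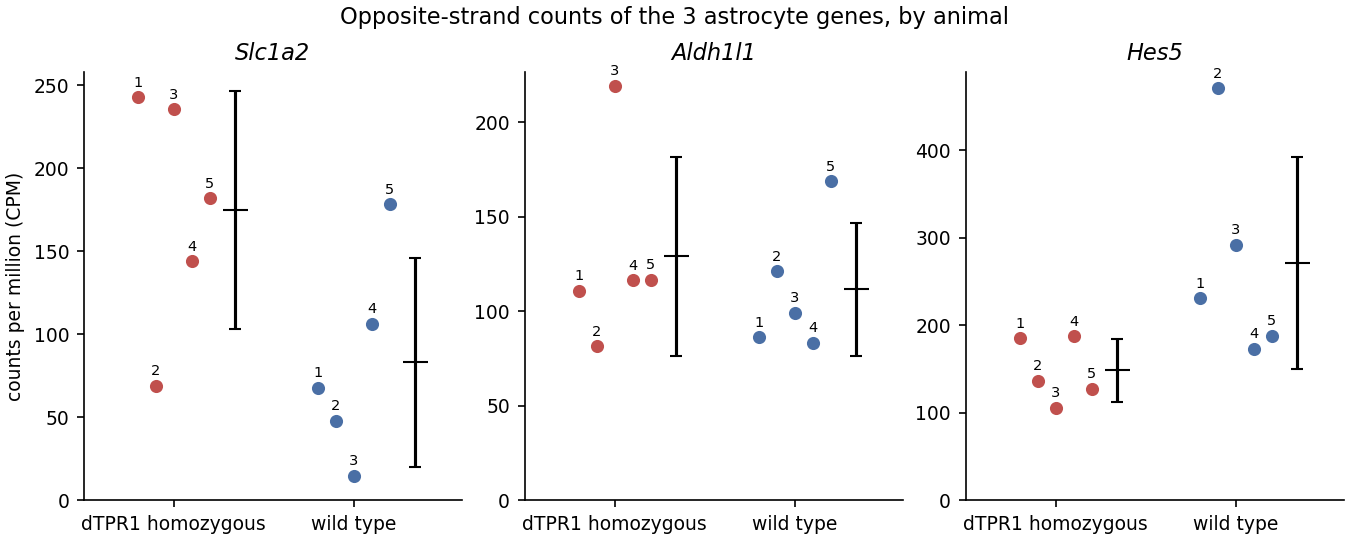
Opposite-strand counts of Slc1a2, Aldh1l1 and Hes5 in CPM (y axis) for each animal, numbered as in the labels, with the mean and SD of each genotype (n = 5) as black bars. Slc1a2 averages 175 CPM in dTPR1 homozygous and 83.0 CPM in wild-type cortex, Hes5 averages 148 CPM in dTPR1 homozygous and 271 CPM in wild-type cortex, and in all 3 panels the groups overlap.

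Of the 3 genes, 0 passed an adjusted p of 0.05 in the edgeR fit across 2019 opposite-strand genes, in which 0 genes, or 0%, were called by genotype and 57 had an unadjusted p under 0.05. DESeq2, over 5158 genes, and limma-voom, over 2019, also called 0. At an unadjusted p under 0.05 they had 138 and 86 genes. Likewise 0 of the 3 genes had groups without overlap, against 0.347% of the tested genes. Nothing can be read from these shares about the 3 genes, since the contrast was used to pick them. In bulk tissue, fewer astrocytes and less RNA per astrocyte cannot be told apart.

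The spread between animals exceeded the counting error for all 3 genes. Over the 10 libraries, the genotype difference included, the coefficient of variation was 61.9% for Slc1a2, 50.6% for Hes5 and 35.9% for Aldh1l1. In dTPR1 homozygous animals alone it was 41%, 24% and 41% in the same order of genes, and in wild-type animals alone 76%, 45% and 31%. The counts alone would give 14.7% for Slc1a2, 9.12% for Hes5 and 11.5% for Aldh1l1 over the 10 libraries. The reads carry no molecular identifiers and may repeat the same molecule, so these values and the floor of 3 counts cover counting error only. The order of the levels depended on the length used. Per kb of the counted ID's exons, the mean level was 312 CPM for Hes5, 180 CPM for Aldh1l1 and 70.6 CPM for Slc1a2. Per kb of bases that face an exon, the mean level was 681 CPM for Slc1a2, 484 CPM for Hes5 and 241 CPM for Aldh1l1, so no order of abundance can be given.

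The 3 genes did not move together across the 10 libraries in a way that passed the test within genotypes. Slc1a2 and Hes5 tended to run in opposite order. Wild-type animals 2 and 3 were first and second for Hes5 and ninth and last for Slc1a2, while dTPR1 homozygous animal 3 was last for Hes5 and second for Slc1a2. The ratio of Slc1a2 to Hes5 CPM ran from 0.506 to 2.23 in dTPR1 homozygous animals and from 0.0505 to 0.949 in wild-type animals. The genotype difference by which the genes were picked enters these ranks and this ratio, so they are a description. Aldh1l1 followed Slc1a2 loosely. Both were high in dTPR1 homozygous animal 3 and wild-type animal 5, yet dTPR1 homozygous animal 1 had the highest Slc1a2 value with a middling Aldh1l1 value.

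Over all 10 libraries, log2 CPM of Slc1a2 and Hes5 gave a Pearson r of -0.66 and a Spearman rho of -0.70. The genotype difference by which the genes were picked enters this value, so it is a description. Deviations from the genotype means, which leave that difference out, gave r = -0.45 (exact permutation p = 0.29 within genotypes, two-sided, and adjusted p = 0.44 over 3 pairs) and rho = -0.62 (exact p = 0.091, adjusted p = 0.27). Without the 2 libraries farthest from the median of Slc1a2, wild-type animals 2 and 3, the pooled r was -0.36. It was -0.68 without animal 2 alone and -0.65 without animal 3 alone. Leaving out 2 wild-type animals also changes the genotype difference within the pooled value, and the part of each was not tested. Without dTPR1 homozygous animal 1 the pooled rho was -0.82, the 1 pooled value among the settings tried that fell under the threshold after adjustment. The genotype difference enters this value too, so it is a description and is not counted as a pass.

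Slc1a2 and Aldh1l1 gave a pooled r of 0.50 and rho of 0.43. Their deviations from the genotype means gave r = 0.48 (exact permutation p = 0.15, adjusted p = 0.44) and rho = 0.24 (exact permutation p = 0.53, adjusted p = 0.79). Leaving out wild-type animals 2 and 3, again the libraries farthest from the median of Slc1a2, moved the pooled r to 0.76. Aldh1l1 and Hes5 gave a pooled r of -0.26 and rho of -0.042. Within genotypes the values were r = -0.17 (exact permutation p = 0.65, adjusted p = 0.65) and rho = -0.042 (exact permutation p = 0.92, adjusted p = 0.92). Without dTPR1 homozygous animal 3 and wild-type animal 5 the pooled r turned to 0.31. A p that misses the threshold does not show that the genes are independent.

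**Figure D3:**
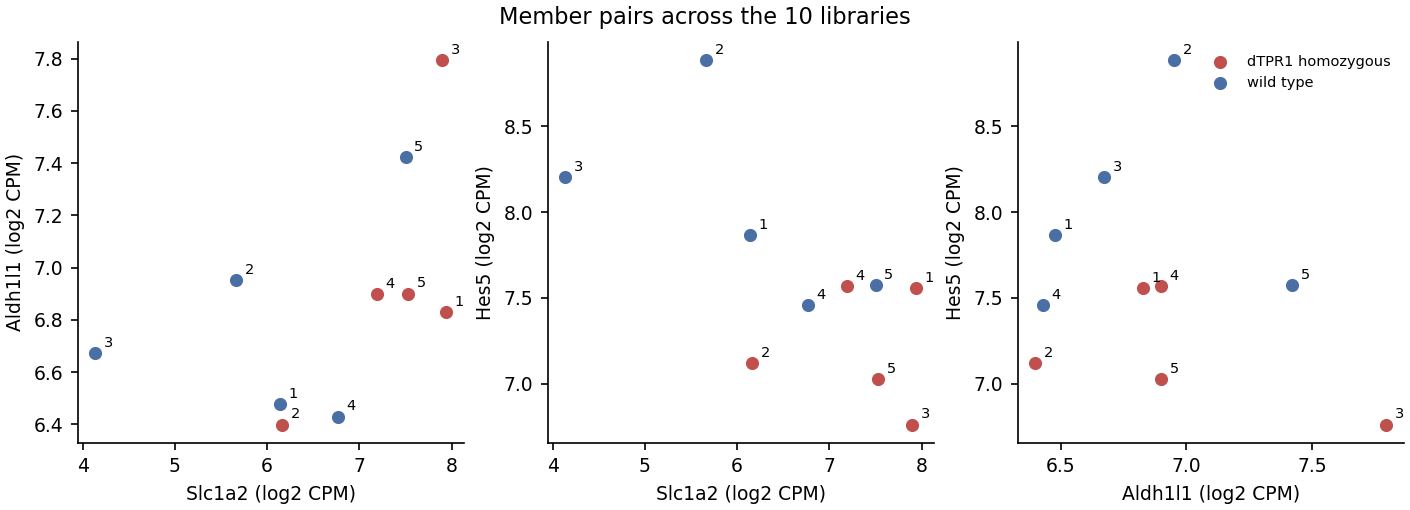
Log2 CPM of each pair of the 3 genes (both axes), 1 point per library, numbered by animal and coloured by genotype. Slc1a2 and Hes5 lie along a falling diagonal (pooled r = -0.66), Slc1a2 and Aldh1l1 along a loose rising one (0.50), and Aldh1l1 and Hes5 show little relation (-0.26).

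Other transcripts followed each gene more closely than the other 2 did. Ranked by r of the deviations over the 10 libraries, Aldh1l1 was number 315 and Hes5 number 1652 of the 2018 other tested genes for likeness to Slc1a2. For likeness to Aldh1l1, Slc1a2 was number 189 and Hes5 number 1355. For likeness to Hes5, Slc1a2 was number 1742 and Aldh1l1 number 1322. The 3 most like Slc1a2 were Mgll (r = 0.95), which encodes monoacylglycerol lipase, Tmem132a (0.93) and Nfix (0.92), a transcription factor of the nuclear factor I family. Mgll, read at Gm26588, ranged from 157 to 375 CPM in dTPR1 homozygous and from 68.4 to 312 CPM in wild-type animals. For Aldh1l1 the closest were Ncor1 (0.86), a corepressor, Kcnj13 (0.85), a potassium channel of the choroid plexus, and Bnip3 (0.85), a mitophagy receptor. For Hes5 they were Tbc1d22b (0.88), Ccnl1 (0.86) and Ilk (0.85), which encodes integrin-linked kinase. Tbc1d22b averaged only 13.9 counts, and its pooled r with Hes5 was 0.044, while that of Ccnl1 was 0.047. Kcnj13 stood at 0 CPM in dTPR1 homozygous animals 1 and 2 and at 204 CPM in wild-type animal 5. These are the top of 2018 values for each gene over 10 shared libraries, and no test was made of them.

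Astrocyte genes as a group could be read only in small part. Of 33 astrocyte genes listed, 8 had an opposite ID and 6 passed the filter on low counts, namely Slc1a2, Aldh1l1, Hes5, Slc7a10, Id4 and Plcd4. The defining markers Gfap, Aqp4, Slc1a3, Glul, Aldoc, S100b and Gja1 face no assigned ID, and their own IDs held between 0 and 42 counts over all libraries, so the astrocyte content of the pieces was not measured through them. Of the 6, 3 had positive and 3 negative fold changes and 0 were called. The median log2 fold change of the 6 was 0.011, against 0.0023 over all 2019 genes. These values include Slc1a2, Aldh1l1 and Hes5, whose fold changes were known when they were picked. Among the others the log2 fold change was -0.18 for Slc7a10, 0.57 for Id4 and -0.44 for Plcd4. With the striatal level, described further on, in the model 5 of 6 were positive, and without a filter the median was -0.15 over 7 genes. Slc7a10, which encodes the amino acid transporter Asc-1, stood at 80.0 ± 42.2 CPM in dTPR1 homozygous and 90.7 ± 29.5 CPM in wild-type cortex. Id4, an inhibitor of DNA binding, was at 76.7 ± 51.0 CPM in dTPR1 homozygous and 51.9 ± 9.31 CPM in wild-type cortex. Plcd4, a phospholipase C, was at 44.6 ± 21.7 CPM in dTPR1 homozygous and 60.3 ± 42.7 CPM in wild-type cortex (SD, n = 5 each). Slc7a10, Id4 and Plcd4 together ranged from 126 to 313 CPM in dTPR1 homozygous and from 142 to 331 CPM in wild-type animals. Unlike those of Slc1a2, Aldh1l1 and Hes5, the own IDs of Slc7a10 and Plcd4 held many counts, 2901 and 3578 over all libraries. That of Id4 held 33. Counts at the opposite IDs averaged 59.1 for Slc7a10, 45.3 for Id4 and 36.7 for Plcd4 per library. How the counts at their own IDs bear on these values was not tested. Of 31 genes of reactive astrocytes, 6 had an opposite ID and 0 passed the filter.

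No relation of Slc7a10, Id4 or Plcd4 with Slc1a2 or Aldh1l1 passed after adjustment. Within genotypes all 3 had negative r with Slc1a2 (-0.75 to -0.17) and with Aldh1l1 (-0.60 to -0.39). Of 16 relations with other astrocyte and Notch genes, computed after the data were seen, 1 had an exact permutation p under 0.05, that of Slc1a2 with Slc7a10 (r = -0.75, exact p = 0.017, adjusted p = 0.27, rho = -0.52), and 0 passed after adjustment. Without wild-type animal 3 and dTPR1 homozygous animal 2 that r was -0.29, and the r of Slc1a2 turned to 0.20 with Id4 and to 0.21 with Plcd4.

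Most tested genes of the Notch pathway had negative fold changes, Hes5, picked by this contrast, among them. Of 52 genes listed, 15 had an opposite ID and 8 were tested. In dTPR1 homozygous cortex 1 of the 8 had a positive and 7 a negative fold change, and 0 were called, where 50.2% of all tested genes had a positive one. Their median log2 fold change was -0.50, and -0.32 without wild-type animals 2 and 3, when 6 of 8 were negative. With the striatal level in the model, or without wild-type animal 1, 5 of 8 were negative, and without a filter on low counts 8 of 14. All these counts and medians include Hes5, whose direction was known when it was picked. The receptor Notch1 stood at 371 ± 77.7 CPM in dTPR1 homozygous and 375 ± 81.4 CPM in wild-type cortex (SD, n = 5 each). Its log2 fold change was -0.014 ± 0.20 (SE). Notch3, a receptor best known from vascular mural cells, was at 29.1 ± 25.0 CPM in dTPR1 homozygous and 43.9 ± 26.0 CPM in wild-type cortex. The ligand gene Dll1 had a log2 fold change of -1.02 ± 0.49 (SE), and Dlk2, which encodes a Delta-like protein, had -0.067 ± 0.79. Aph1a, a subunit of gamma-secretase, had -0.82 ± 0.48, at 29.3 ± 15.6 CPM in dTPR1 homozygous and 51.7 ± 16.6 CPM in wild-type cortex. Nrarp, like Hes5 a target of the pathway and an inhibitor of it, was at 307 ± 70.5 CPM in dTPR1 homozygous and 404 ± 142 CPM in wild-type cortex, a log2 fold change of -0.39 ± 0.24.

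Among the listed astrocyte and Notch genes, Nrarp had the highest r with Hes5 within genotypes over all 10 libraries, which did not pass after adjustment. Its r was 0.62 (exact permutation p = 0.10, adjusted p = 0.44 over 16 relations) and rho 0.70 (exact permutation p = 0.045, adjusted p = 0.27). Without wild-type animal 2 and dTPR1 homozygous animal 4 its r was 0.71, when Aph1a (0.81) and the astrocyte gene Plcd4 (0.78) stood above it. Over all 10 libraries r of Hes5 was -0.061 with Slc7a10, 0.28 with Id4 and 0.038 with Plcd4. Without the same 2 libraries r was 0.30 with Slc7a10 and 0.70 with Id4. Over the 7 other Notch genes r with Hes5 ran from -0.36 to 0.62.

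Genes that share the chemistry of Slc1a2 and Aldh1l1 gave no call. In the list of glutamate and glutamine handling, 4 of 30 genes were tested and 3 had positive fold changes, Slc1a2 itself among them. The median log2 fold change of the 4 was 0.090. Slc1a1, the glutamate transporter of neurons, was at 338 ± 57.8 CPM in dTPR1 homozygous and 323 ± 48.5 CPM in wild-type cortex (SD, n = 5 each). Got2, the mitochondrial aspartate aminotransferase, had a log2 fold change of 0.11 ± 0.36 (SE), and Aldh5a1, an enzyme of GABA breakdown, had -0.44 ± 0.25. Of 31 genes of folate one-carbon metabolism, 4 were tested, with a median of 0.10, and 2 had positive fold changes, Aldh1l1 itself among them. Aldh1l2, the mitochondrial counterpart of Aldh1l1, was at 72.4 ± 41.0 CPM in dTPR1 homozygous and 114 ± 46.8 CPM in wild-type cortex. Sardh, which encodes sarcosine dehydrogenase, had a log2 fold change of 0.54 ± 0.36, and Gart, an enzyme of purine synthesis, had -0.0040 ± 0.74. Of 20 aldehyde dehydrogenases, 5 were tested, with a median of -0.23, and 2 were positive, again with Aldh1l1 among them.

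**Figure D4:**
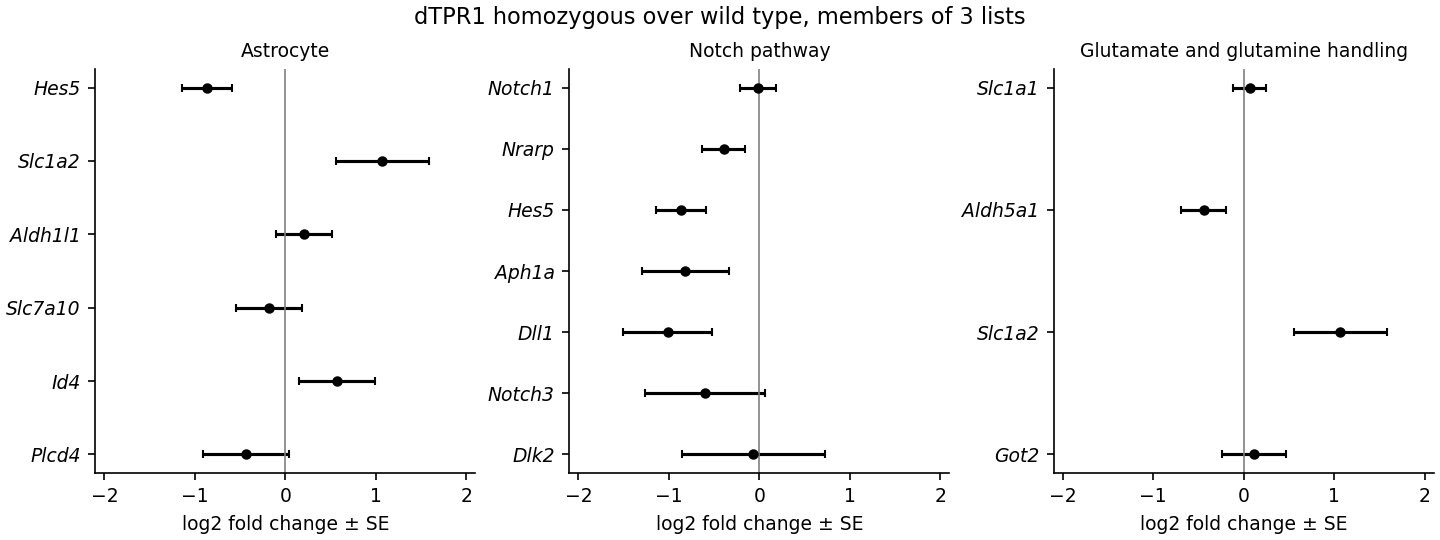
Log2 fold change of dTPR1 homozygous over wild type (x axis, bars are SE) for tested genes of 3 lists, ordered by mean count with the highest at the top. Hes5 and Slc1a2 stand on opposite sides of 0 within the astrocyte list, and the 7 Notch genes drawn lie below 0, while the 1 tested Notch gene with a positive fold change is not drawn. None of these genes was called.

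Markers of striatum, the region beneath the cortex, differed widely between animals, and no relation of their level with the 3 genes passed. The 4 striatal genes tested, Penk, Ppp1r1b, Rarb and Syndig1l, all had negative fold changes with a median of -1.27, and 0 were called. Without wild-type animals 2 and 3 the median was -0.28, and 3 of the 4 were negative. The mean log2 CPM of the 4 genes was 7.54, 8.55, 7.62, 6.23 and 8.71 in dTPR1 homozygous animals 1 to 5, against 7.68, 9.83, 10.4, 9.18 and 7.47 in wild-type animals 1 to 5. The 2 wild-type animals with the highest striatal level, 3 and 2, were those with the lowest Slc1a2 and the highest Hes5. Within genotypes the striatal level gave r = -0.62 with Slc1a2 (exact permutation p = 0.088, adjusted p = 0.39 over 9 relations, rho = -0.49), r = 0.21 with Hes5 (exact p = 0.62, adjusted p = 0.80, rho = 0.042) and r = -0.27 with Aldh1l1 (exact p = 0.46, adjusted p = 0.69, rho = -0.091). Pooled over 10 libraries the values were -0.73, 0.48 and -0.33. Without wild-type animals 2 and 3 they were -0.29, -0.32 and -0.40, so the pooled relation with Hes5 turned its sign. With the striatal level in the model the log2 fold changes were 0.65 ± 0.47 for Slc1a2, -0.71 ± 0.34 for Hes5 and 0.057 ± 0.36 for Aldh1l1 (SE). The part of striatal tissue in these differences was not tested further.

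**Figure D5:**
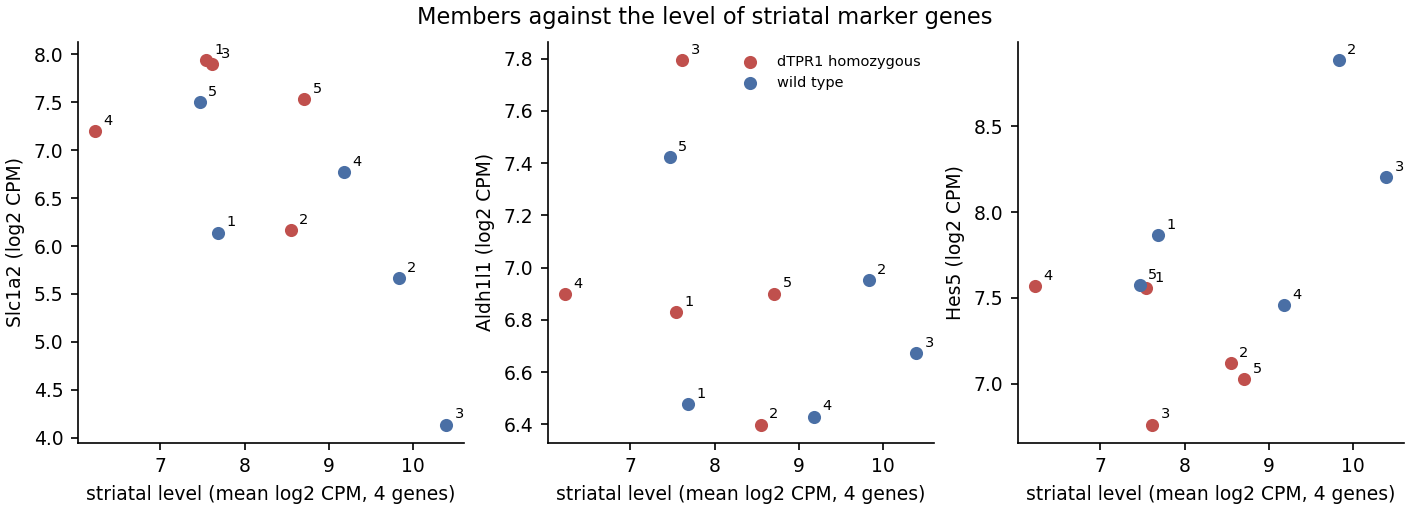
Log2 CPM of Slc1a2, Aldh1l1 and Hes5 (y axes) against the mean log2 CPM of 4 striatal genes (x axes), 1 point per library, numbered by animal. Wild-type animals 2 and 3 have the highest striatal levels (9.83 and 10.4), the lowest Slc1a2 and the highest Hes5.

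Age and depth gave no relation that passed. Age in days had pooled r = -0.36 with Slc1a2, 0.068 with Aldh1l1 and 0.31 with Hes5. Within genotypes age gave r = -0.46 with Slc1a2 (exact permutation p = 0.33, adjusted p = 0.69 over 9 relations, rho = -0.57). It gave r = 0.064 with Aldh1l1 (exact p = 0.87, adjusted p = 0.87, rho = -0.19) and 0.445 with Hes5 (exact p = 0.34, adjusted p = 0.69, rho = 0.55). Hes5 had a pooled r of 0.64 with log2 library total and 0.68 within genotypes (exact permutation p = 0.050, adjusted p = 0.39 over 9 relations, rho = 0.72). It was 0.56 without wild-type animal 2 and dTPR1 homozygous animal 4, the 2 libraries with most counts. Slc1a2 and Aldh1l1 had pooled r of -0.23 and 0.22 with the library total. Without dTPR1 homozygous animal 3 that of Aldh1l1 was 0.76 (exact permutation p = 0.016, adjusted p = 0.12, rho = 0.80).

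Markers of other cells that a piece of cortex could hold gave no call either. Of 22 neuronal genes 8 were tested, and their sum ranged from 17980 to 24970 CPM in dTPR1 homozygous and from 18020 to 22880 CPM in wild-type animals. Of the 8, 6 had positive and 2 negative fold changes. Syp, a synaptic vesicle protein, averaged 10960 ± 1153 CPM in dTPR1 homozygous and 9977 ± 1627 CPM in wild-type animals (SD, n = 5 each). Slc32a1 went the other way, at 805 ± 382 CPM in dTPR1 homozygous and 1177 ± 659 CPM in wild-type animals, a log2 fold change of -0.55 ± 0.42 (SE). The 2 tested oligodendrocyte lineage genes, Bcas1 and Gpr17, summed to between 1618 and 2583 CPM in dTPR1 homozygous and between 1039 and 1870 CPM in wild-type animals. Of the microglial genes, Ctsb, a lysosomal protease, was at 203 ± 18.0 CPM in dTPR1 homozygous and 225 ± 52.9 CPM in wild-type cortex. The endothelial and mural genes Tagln, Slc2a1 and Notch3 summed to between 215 and 326 CPM in dTPR1 homozygous and between 209 and 931 CPM in wild-type animals. The ependymal and choroid plexus genes Rarres2 and Kcnj13 summed to between 1.40 and 287 CPM in dTPR1 homozygous and between 26.8 and 274 CPM in wild-type animals. Of the 2 tested radial glia genes, Hes5 and Hopx, Hopx was at 148 ± 53.7 CPM in dTPR1 homozygous and 98.7 ± 60.9 CPM in wild-type cortex. Pdgfra, Olig1 and Cx3cr1 had an assigned opposite ID with 0 counts in every library. The part of these cells in the values of Slc1a2, Aldh1l1 and Hes5 was not tested.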

How the data were processed

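RNA sequencing of cortex from 10 mice, 5 per genotype, was analysed from raw read counts. The deposited files hold the authors' raw, whole-number counts at 53090 Ensembl gene IDs per library. TopHat, HTSeq, DESeq2 and the build GRCm38.p5 are named per the submitters' processing notes. Versions, strand setting and annotation release are not given in the sources used here. Per the labels' protocols, TRIzol RNA went into the SENSE Total RNA-Seq kit. No row stood for unassigned reads (0 rows name no gene).

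In GENCODE M21 on GRCm38, 52403 IDs were found and 687 were not. Where 1 gene accounts for 90% or more of the exon sequence facing an ID, the ID's counts went to that gene. This used 8188 IDs and gave 7385 genes and 88.0% of counts. The assignment rests on positions, not on reads. All counts of an ID go to its opposite gene, intron-facing and upstream bases included. The strand setting used in counting decides whether a gene's own ID or its opposite ID holds its reads. Genes without an assigned opposite ID are not seen.

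The genotype fit used edgeR 4.0.16 in R 4.3.3 with TMM factors, filterByExpr by group, robust quasi-likelihood fits and Benjamini-Hochberg adjustment at 0.05. Fold changes set dTPR1 homozygous animals over wild type. Log2 CPM used a prior count of 2. Correlations were Pearson's r and Spearman's rho. Pooled values had permutation tests with 100000 resamples, and deviations from genotype means had exact tests over the 14400 arrangements within genotypes, both two-sided. The scripts were tested on simulated data. The tests were written for pooled values, and those within genotypes are given in the report because the members were picked by genotype.

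The members and the 13 gene lists were chosen with earlier results of these data known. Named genes were the members in every library, the 3 genes most like each member within genotypes, every tested member of the astrocyte, Notch and glutamate lists, and in other lists up to 4 tested members with most counts, of which some are named here. The values of 1 Notch gene and 1 microglial gene are not reported here. Alternatives were other scalings, filters, DESeq2 1.42.0, limma-voom (limma 3.58.1), age, striatal level or animal number in the model, other shares in the assignment, other prior counts, mitochondrial IDs left out and libraries left out.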

Additional observations from a re-analysis of the deposited data

Results flagged for a closer look

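Groups of 5 animals were examined for a single value far from the others, over the 3 genes, 2 ratios between them, the striatal level and the summed astrocyte, Notch and glutamate lists. Of 18 groups examined 1 had such a value, where chance gives about 1 in 20, or 0.9. It was Aldh1l1 in dTPR1 homozygous animal 3, at 219.3 CPM, against 81.5 to 117 CPM in the other 4 dTPR1 homozygous animals. The same animal had the second highest Slc1a2 (236 CPM) and the lowest Hes5 (106 CPM) of the 10 libraries.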

How the results depend on the processing

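Genes called by genotype numbered 0 under every other scaling, filter, tool, covariate, assignment share and left-out library (0 to 0), with the exception of no filter, which gave 2, Fam184b and Prox1os, neither a member. The cause was not tested. List genes called were 0 under each scaling and filter. With each library left out the log2 fold change ran from 0.79 to 1.57 for Slc1a2, from -0.066 to 0.41 for Aldh1l1 and from -0.98 to -0.57 for Hes5, and over the other settings from 0.56 to 1.35, from 0.057 to 0.27 and from -0.88 to -0.41. Within genotypes no pair of members passed (exact permutation tests over 3 pairs, smallest adjusted p = 0.44 for Pearson's r and 0.27 for Spearman's rho). Pooled values of the pairs hold the genotype difference by which the members were picked, so they are a description. Among them only rho of Slc1a2 with Hes5, without dTPR1 homozygous animal 1, fell under the threshold after adjustment. Aldh1l1 with Hes5 turned from r = -0.26 to 0.31 without the 2 libraries farthest from the median, and ran from -0.45 to 0.15 with each library left out, 0.15 being without dTPR1 homozygous animal 3. Aldh1l1 against age turned to -0.54 without the 2 libraries farthest from the median and ran from -0.40 to 0.22 with each library left out, -0.40 being without wild-type animal 4. Without wild-type animals 2 and 3, a choice made after seeing the data, Hes5 against the striatal level turned to -0.32 and Slc1a2 against the library total to 0.37. The causes were not tested. Animal numbers are shared between genotypes only as numbers: deviations of same-numbered animals correlated between -0.11 and 0.098. With animal number as a replicate block 0 genes were called and the log2 fold changes were 1.23 for Slc1a2, 0.18 for Aldh1l1 and -0.80 for Hes5. Only 1 ID was assigned to each member, so taking the ID with most counts gives the same values. Counts of 11 to 354 per member and library and the number of animals limit the precision of every relation given here.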
